A study of Mus musculus with 2 samples.

Results

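The 10 genes described here are the transcription factor genes Zeb1, Zeb2, Snai1, Snai2, Twist1, Twist2, Prrx1 and Tcf4, the intermediate filament gene Vim and the N-cadherin gene Cdh2. They were taken by symbol, and all 10 were found among the 24223 mouse genes counted. RNA-seq was performed on CT26, a mouse colon carcinoma cell line of BALB/c origin. 1 library came from DAC-treated cells: decitabine (DAC), a cytosine analog that is built into DNA and traps DNA methyltransferases, was given 3 times at 1 μM, with 24 h between doses, and a 24 h culture without the drug followed. The other library came from control CT26 cells, cultured side by side but never given DAC. With 1 library per group no difference has a replicate check, and no p-value is given.

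In epithelial cells that take on a mesenchymal state, the zinc finger proteins of the ZEB and SNAIL families bind E-box sequences and repress genes of cell adhesion, such as the E-cadherin gene Cdh1. TWIST proteins are basic helix-loop-helix (bHLH) factors that bind E-boxes together with E proteins such as the product of Tcf4, and PRRX1 is a homeobox factor of mesenchyme. Vimentin and N-cadherin are the filament protein and the adhesion protein by which the mesenchymal state is usually recognized. In development these genes act in the neural crest and mesoderm, and in carcinomas they are studied for their part in invasion.

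The libraries held 35163420 (DAC) and 34221886 (control) counts. Scaling with edgeR's TMM factors gave CPM, a count divided by the scaled size of its library, and 1 CPM corresponds to 37.6 DAC counts or 32.0 control counts. To be called higher or lower with DAC, a gene had to have at least 1 CPM in either library, a DAC-to-control ratio of 2 or more or of 0.5 or less, and an exact 95% counting interval of that ratio that did not reach 1. These intervals follow each ratio in parentheses and cover counting error only. Of 13545 genes past 1 CPM, 10.8% were called higher and 5.29% lower. Of 15 genes that mark colon epithelium, 12 were analysed here, with 267 CPM in sum in DAC and 80.0 CPM in control. Most of the difference was Krt8. Of the 6 past 1 CPM, 5 were called higher (Krt8, Krt19, Krt20, Cdh17 and Lgals4), 2 of them through their DAC level alone. Muc2, under 1 CPM in both libraries, went the other way, with 6 counts in DAC and 21 in control. Of the 12, 0 had 0 counts in DAC and 4 had 0 in control, Cdh1 among them with 9 counts in DAC. Over all 24223 genes, 1570 had 0 counts in DAC and 3506 in control. Of 10 markers of immune cells, 5 were analysed here. They summed to 22.7 CPM in DAC and 15.7 CPM in control, nearly all of it Cd68. The others went in both directions. Ptprc had 0 counts in DAC and 3 in control, and Lyz2 had 17 in DAC and 31 in control. Laptm5 had 24 in DAC and 0 in control, and Cd52 had 2 in DAC and 0 in control. Endothelial markers summed to 2.87 CPM in DAC and 2.5 CPM in control. Markers of fibroblasts, which share many genes with the mesenchymal state, summed to 1162 CPM in DAC and 1820 CPM in control, mostly from Col1a2. Of the 8 past 1 CPM, 6 had a ratio above 1, beside 6595 of 13545 over all genes. Their median log2 ratio was 0.46, with 1 called higher and 0 lower. The higher one, Fap, passed 1 CPM through its DAC level alone. The part of these cell type markers in the results was not tested. In a bulk library, fewer cells with a transcript and less of it per cell cannot be told apart.

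All 10 genes were expressed in both libraries, and their ratios lay on both sides of 1. Zeb2, Snai2 and Prrx1 were lower in the DAC library by slightly over 2-fold, Tcf4 lay just under a 2-fold higher level, and the other 6 genes lay within 1.25-fold of the control. Thus 3 of 10 were called lower and 0 higher, beside 5.29% and 10.8% of all genes. The median log2 ratio of the 10 genes was -0.03, against -0.02 over all 13545 genes. These calls rest on the scaling: by library totals alone, which move the median log2 ratio of all genes up by 0.20, 0 of the 10 genes were lower and 1, Tcf4, was higher, beside 3.37% and 13.9% of all genes. The same 0 and 1 came out when ratios were centred on the GC content of the transcripts, beside 601 lower and 1390 higher of all 13545 genes.

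**Figure D1:**
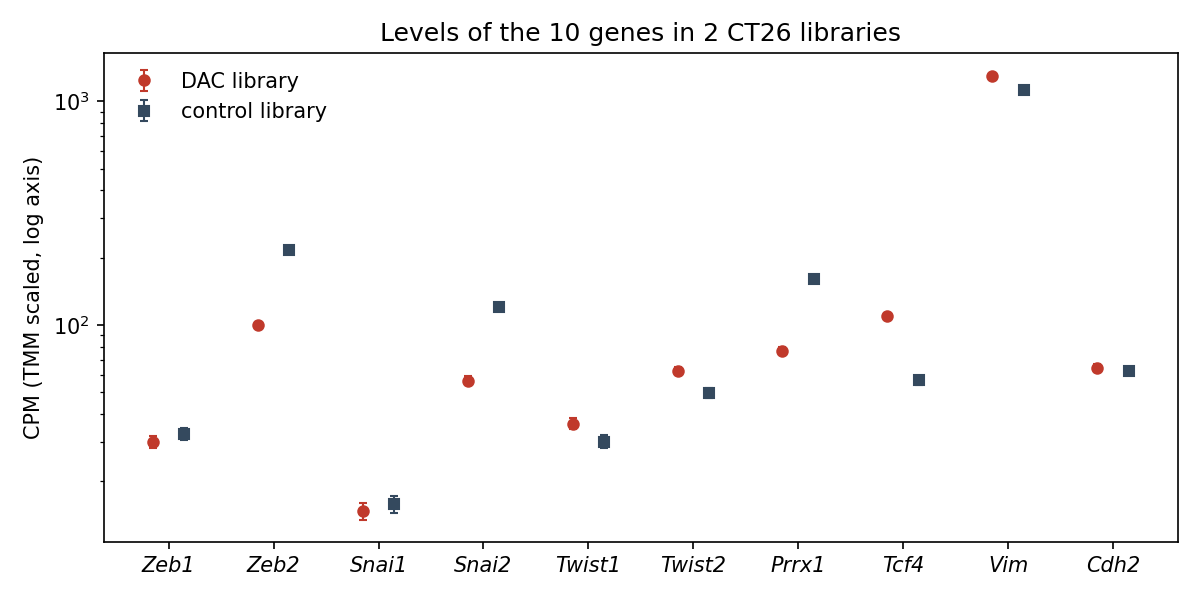
CPM (y axis, log scale) of each gene (x axis) in the DAC library (red circles, left) and the control library (dark squares, right), with exact 95% Poisson counting intervals as bars. Vim stands highest, at 1297 CPM in DAC and 1128 CPM in control, and Zeb2, Snai2 and Prrx1 have the DAC point well under the control point.

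The ZEB family split. Zeb2 encodes a zinc finger and homeodomain repressor and lies on chromosome 2 of GRCm38 from 44983632 to 45117395. It had 3749 counts in DAC and 6967 in control, or 99.8 CPM in DAC and 218 CPM in control, a ratio of 0.459 (0.441 to 0.477). Zeb1, the other member of the family, lies on chromosome 18 from 5591860 to 5775467. It had 1126 counts in DAC and 1048 in control, or 30.0 CPM in DAC and 32.7 CPM in control, a ratio of 0.916 (0.841 to 0.997). The Zeb2 values were far apart. Those of Zeb1 had overlapping counting intervals, although the interval of their ratio lay just below 1. By library totals the log2 ratio of Zeb1 turned to 0.06 and that of Zeb2 was -0.93, no longer past 2-fold. Zeb2os, an antisense gene, overlaps 653 bases of Zeb2 exons and had 33 counts in DAC and 78 in control. The sources used here do not state whether strand was used in counting, so reads of both genes cannot be told apart there.

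Snai2 and Snai1 also differed, by an amount that depends on GC centring. Snai2 (Slug), on chromosome 16 from 14705852 to 14709385, had 2123 counts in DAC and 3862 in control. These are 56.5 CPM in DAC and 121 CPM in control, a ratio of 0.468 (0.444 to 0.494). Snai1 (Snail), on chromosome 2 from 167538195 to 167542814, had 552 counts in DAC and 506 in control. These are 14.7 CPM in DAC and 15.8 CPM in control, a ratio of 0.930 (0.823 to 1.05), and the counting intervals of its 2 levels overlap. Snai1 was the gene with the fewest counts among the 10. Its log2 ratio of -0.11 turned to 0.09 by library totals, and that of Snai2 became -0.90, under 2-fold. After GC centring Snai2 was at -0.82 and Snai1 at -0.51, closer together, whereas Zeb2 at -0.83 and Zeb1 at 0.01 stayed apart.

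The TWIST genes stood slightly above the control, with similar ratios. Twist1, on chromosome 12 from 33957671 to 33959829, had 1364 counts in DAC and 966 in control, or 36.3 CPM in DAC and 30.2 CPM in control, a ratio of 1.20 (1.11 to 1.31). Twist2, on chromosome 1 from 91801461 to 91848028, had 2333 counts in DAC and 1592 in control, or 62.1 CPM in DAC and 49.7 CPM in control, a ratio of 1.25 (1.17 to 1.33). Neither reached 2-fold under any scaling tried. The antisense gene Gm29100 overlaps 1477 bases of Twist2 exons and had 146 counts in DAC and 259 in control.

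Tcf4, which encodes the E protein E2-2 and lies on chromosome 18 from 69343356 to 69689079, stood highest in DAC relative to control. It had 4141 counts in DAC and 1812 in control, or 110.2 CPM in DAC and 56.6 CPM in control, a ratio of 1.95 (1.84 to 2.06). The ratio is just outside the 2-fold rule and its counting interval reaches past 2, so the rule does not separate it from a called gene. By library totals its log2 ratio was 1.15 and after GC centring 1.25, both called higher. Prrx1, on chromosome 1 from 163245119 to 163313710, had 2882 counts in DAC and 5163 in control, or 76.7 CPM in DAC and 161 CPM in control. Its ratio of 0.476 (0.454 to 0.498) is the one just inside the rule. Its log2 ratio became -0.88 by library totals and -0.79 after GC centring, not called.

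The mesenchymal structural genes were close to the control. Vim, on chromosome 2 from 13573927 to 13582826, had 48746 counts in DAC and 36138 in control, or 1297 CPM in DAC and 1128 CPM in control, a ratio of 1.15 (1.13 to 1.17). Its counting interval is narrow and lies above 1, at a difference far under 2-fold. Cdh2, on chromosome 18 from 16588877 to 16809246, had 2425 counts in DAC and 1996 in control, or 64.5 CPM in DAC and 62.3 CPM in control. Its ratio was 1.04 (0.975 to 1.10), and a difference was not detectable at this depth.

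**Figure D2:**
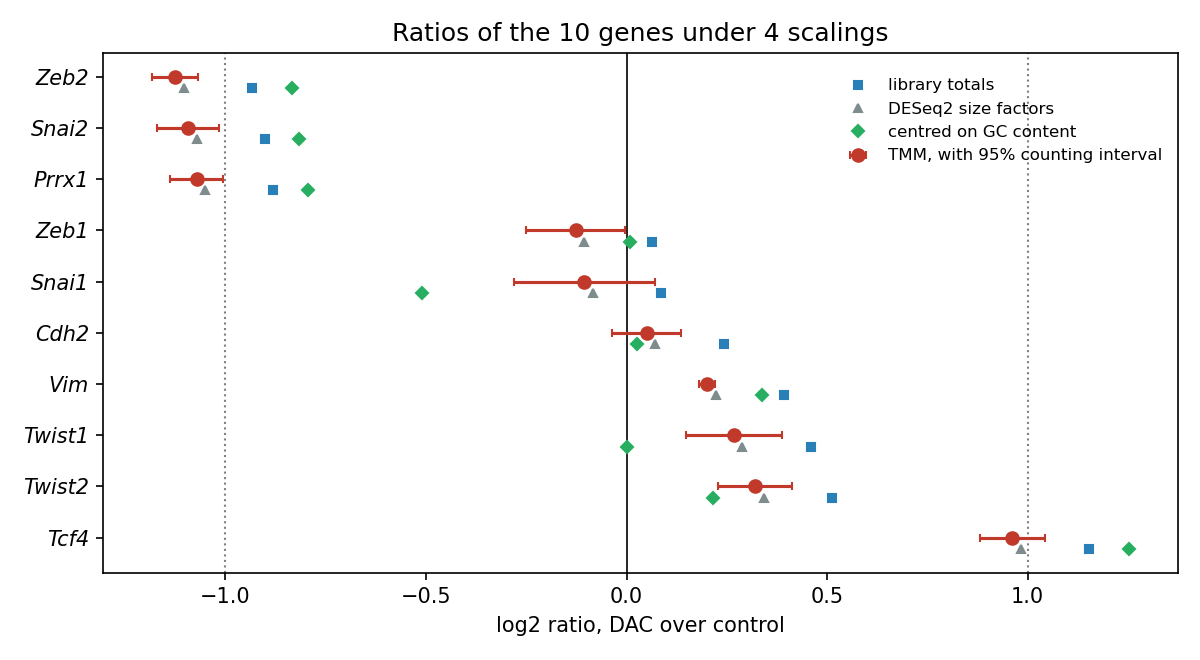
The x axis gives the log2 of DAC over control for each gene, as red circles with 95% counting intervals (TMM scaling) and as squares, triangles and diamonds under library totals, DESeq2 size factors and GC centring. Dotted lines mark 2-fold differences, and Zeb2, Snai2 and Prrx1 lie left of -1 by TMM (-1.12, -1.09 and -1.07) and right of it by library totals and GC centring.

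Levels of different genes were compared as CPM per kb of merged GENCODE exons. Vim was the most abundant of the 10, at 274 CPM per kb in DAC and 238 in control, above 99.0% (DAC) and 98.5% (control) of the genes past 1 CPM. Snai2 came next in both libraries with 28.0 CPM per kb in DAC and 59.7 in control, followed by Twist1 (22.3 in DAC and 18.5 in control) and Twist2 (19.6 in DAC and 15.7 in control). Zeb1 was among the lowest, with 2.92 CPM per kb in DAC and 3.19 in control. Prrx1 stood at 6.93 CPM per kb in DAC and 14.6 in control, Zeb2 at 5.0 in DAC and 10.9 in control, and Tcf4 at 4.02 in DAC and 2.07 in control. The places of Zeb2 and Prrx1 were thus lower in the DAC library, after Cdh2, and Tcf4 had passed Zeb1. In this order, the counting intervals of Snai1 and Cdh2 in DAC, at 9.06 and 8.0 CPM per kb, overlapped. So did those of Twist2 and Prrx1 in control. Such an overlap is not a test and does not show that the levels are equal. The merged exons, which sum over all isoforms, span 27382 bases in Tcf4 and 2021 in Snai2, and a long span lowers the level per kb.

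The ratio of 2 genes within a library does not depend on a factor that scales a whole library, so the balance within families was compared directly. It does change with GC centring, which shifts each gene by the GC content of its transcripts. These pairs were chosen after the values had been seen. For each count of Zeb1 there were 3.33 counts of Zeb2 in DAC and 6.65 in control, a ratio of 0.501 (0.456 to 0.550). For each count of Snai1 there were 3.85 counts of Snai2 in DAC and 7.63 in control, a ratio of 0.504 (0.442 to 0.575). The balance of Twist2 to Twist1, 1.71 in DAC and 1.65 in control, had a ratio of 1.04 (0.935 to 1.15). The 3 lower genes were grouped by their similar ratios of DAC to control, so nearly unchanged proportions to each other follow from that choice. There were 0.566 counts of Snai2 per count of Zeb2 in DAC and 0.554 in control, a ratio of 1.02 (0.956 to 1.09), and for Prrx1 there were 0.769 in DAC and 0.741 in control, a ratio of 1.04 (0.977 to 1.10). Against Zeb2, Vim was 2.51-fold (2.40 to 2.61), Twist2 2.72-fold (2.53 to 2.94) and Tcf4 4.25-fold (3.97 to 4.55) higher in DAC. After GC centring the ratio was 0.557 for Zeb2 to Zeb1 and 0.809 for Snai2 to Snai1, a move of over 1.5 times, while the ratios of Snai2 and Prrx1 to Zeb2 were 1.01 and 1.03. Those of Twist2 to Twist1, and of Vim, Twist2 and Tcf4 to Zeb2, were 1.16, 2.25, 2.07 and 4.25. Such ratios show unequal change and not which of the genes moved.

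**Figure D3:**
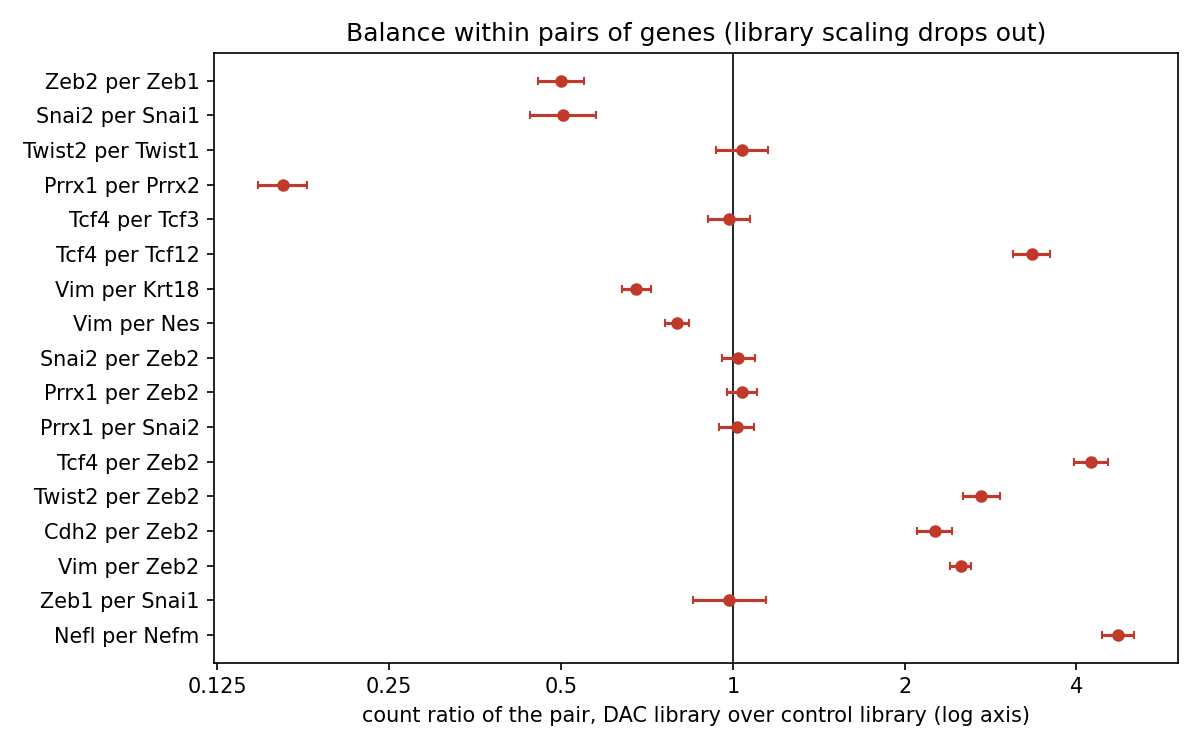
Count ratio of each pair of genes in the DAC library divided by that in the control library (x axis, log scale), as points with 95% counting intervals. The pair Vim per Krt8, at 0.0015, is left out of the plot. Pairs such as Zeb2 per Zeb1 (0.501) lie left of 1, and the pairs among Zeb2, Snai2 and Prrx1 lie at 1.02 to 1.04. Of the plotted pairs, Prrx1 per Prrx2 lies farthest left at 0.163 (0.261 after GC centring). GC centring is not plotted and also brings Snai2 per Snai1 to 0.809.

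Relatives and partners of these factors were read in the same way. Prrx2, the paralog of Prrx1, had 2207 counts in DAC and 643 in control and was 2.93-fold higher (2.68 to 3.20), so that the counts of Prrx1 per count of Prrx2 were 1.31 in DAC and 8.03 in control, a ratio of 0.163 that became 0.261 after GC centring. Tcf3 (E2A), an E protein like Tcf4, had 2975 counts in DAC and 1281 in control, a ratio of 1.98 (1.85 to 2.11). The balance of Tcf4 to Tcf3 was 1.39 in DAC and 1.41 in control, a ratio of 0.984 (0.903 to 1.07) that became 1.59 after GC centring. Tcf12, which encodes the E protein HEB, had 2584 counts in DAC and 3775 in control, a ratio of 0.583 (0.555 to 0.613). The Id proteins bind E proteins and keep them off DNA, and Id3 was 5.20-fold higher (4.38 to 6.22) and Id2 2.22-fold higher (1.99 to 2.5). Id3 had 922 counts in DAC and 151 in control, and Id2 had 1086 in DAC and 416 in control. Id1, with 1070 counts in DAC and 462 in control, had a ratio of 1.97 (1.77 to 2.21). By library totals Id1 and Tcf3 pass 2-fold (log2 ratios 1.17 and 1.18), and after GC centring they do not (0.79 and 0.58).

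Promoter sequences of 6 of the 10 genes were taken from RefSeq (GRCm38.p6), since the methyltransferases that DAC traps act on CpG. Snai2, also lower, and Zeb1, Tcf4 and Cdh2 had no window in this source. Windows are the 250 bases before the most upstream RefSeq start, with each CpG in capitals. RefSeq starts can differ from the GENCODE gene spans given above: the Prrx1 window lies partly, and the Vim window wholly, inside its span. The lower genes Zeb2 and Prrx1 are shown. Of the genes not called, Snai1 and Twist2 are shown, which have the most CpG of the 6, while Twist1 and Vim are not shown.
Zeb2 (chr2:45117443-45117692, minus strand): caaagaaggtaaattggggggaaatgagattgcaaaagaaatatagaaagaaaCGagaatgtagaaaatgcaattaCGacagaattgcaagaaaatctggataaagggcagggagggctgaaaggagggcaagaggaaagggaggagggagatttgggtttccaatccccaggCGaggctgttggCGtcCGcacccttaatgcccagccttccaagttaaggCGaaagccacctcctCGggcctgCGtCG
Prrx1 (chr1:163313651-163313900, minus strand): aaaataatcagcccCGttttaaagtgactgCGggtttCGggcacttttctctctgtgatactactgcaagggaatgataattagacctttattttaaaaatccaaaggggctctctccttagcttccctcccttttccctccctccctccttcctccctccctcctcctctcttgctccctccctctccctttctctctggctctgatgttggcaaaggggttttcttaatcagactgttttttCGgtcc
Snai1 (chr2:167537945-167538194, plus strand): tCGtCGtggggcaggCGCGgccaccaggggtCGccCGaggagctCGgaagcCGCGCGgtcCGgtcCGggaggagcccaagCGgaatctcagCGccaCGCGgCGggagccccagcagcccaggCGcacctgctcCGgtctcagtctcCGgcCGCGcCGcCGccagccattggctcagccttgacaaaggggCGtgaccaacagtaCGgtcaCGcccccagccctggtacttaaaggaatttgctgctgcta
Twist2 (chr1:91801211-91801460, plus strand): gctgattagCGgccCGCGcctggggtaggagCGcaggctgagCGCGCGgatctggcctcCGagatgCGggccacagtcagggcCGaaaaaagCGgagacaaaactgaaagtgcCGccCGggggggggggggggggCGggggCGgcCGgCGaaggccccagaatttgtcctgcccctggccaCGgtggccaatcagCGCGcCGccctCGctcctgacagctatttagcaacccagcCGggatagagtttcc
Zeb2 had 9 CpG and Prrx1 4 in this window, against 27 in Snai1, 23 in Twist2, 18 in Twist1 and 8 in Vim. The median over 32851 promoter windows was 6, with 2 and 16 at the quartiles, so Zeb2, Prrx1 and Vim lie near the middle and Snai1 and the TWIST genes lie high. Zeb2 has 3 further starts, with 6 to 14 CpG. The E-box letters CACCTG, or CAGGTG when read on the other strand, are bound by ZEB and SNAIL proteins and occur in the Snai1 window alone among these 6 genes, and in 17.2% of all windows. Methylation of these windows was not analysed here.

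Zeb1 and Zeb2 are known targets of the miR-200 family and miR-205, which bind their 3′ UTRs. The mature sequences from RefSeq are shown because their seeds fall into 3 groups, with the seed (bases 2 to 8) in capitals.
miR-200b-3p: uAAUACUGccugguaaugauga
miR-200c-3p: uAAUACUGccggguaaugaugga
miR-429-3p: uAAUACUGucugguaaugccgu
miR-200a-3p: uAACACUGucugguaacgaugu
miR-141-3p: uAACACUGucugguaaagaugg
miR-205-5p: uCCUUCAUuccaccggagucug
The site of the first seed, CAGTATT, occurs 5 times in the longest 3′ UTR of Zeb1 and 5 times in that of Zeb2, once each in Snai1, Snai2 and Tcf4, and in none of the other 5 genes. Of 11508 genes past 1 CPM with a 3′ UTR, 16.3% hold at least 1 and 0.626% hold 3 or more. The site of the second seed, CAGTGTT, occurs 4 times in Zeb1, 4 times in Zeb2, 2 times in Tcf4 and 1 time in Snai2, and in 22% of all these 3′ UTRs. The third, ATGAAGG, occurs 1 time, in Zeb1, and in 13.1% of all. Per kb of 3′ UTR, the first site occurs 2.08 times in Zeb1 and 1.01 times in Zeb2. Mature miRNAs were not measured in these libraries.

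The genes known to be repressed by ZEB, SNAIL and TWIST factors were low in both libraries, with a few exceptions. Of 29 such epithelial genes, 24 were analysed, and 16 of them stayed under 1 CPM in both libraries. Of the 8 others, 5 were higher and 0 lower in DAC, beside 10.8% and 5.29% of all genes. However, 4 of these 5 were under 1 CPM in control and entered only through their DAC counts, so the count is a description. Of the 8, 1 had a ratio below 1: Grhl1, with 124 counts in DAC and 192 in control, a ratio of 0.550 (0.436 to 0.693). Krt8, which encodes a simple-epithelial keratin, had 4445 counts in DAC and 5 in control, and Grhl2, an epithelial transcription factor, had 238 in DAC and 3 in control, a ratio of 67.6 (22.9 to 330.2). Of the 50-base stretches of Krt8, 26.9% occur in other genes too, so its counts may hold reads of those. Pkp3, a desmosome gene, had 241 counts in DAC and 51 in control, a ratio of 4.03 (2.97 to 5.56). Krt18, the partner of Krt8, had 3579 counts in DAC and 1797 in control and a ratio of 1.70 (1.60 to 1.8). For each count of Krt18 there were 13.6 counts of Vim in DAC and 20.1 in control, a ratio of 0.677 (0.639 to 0.718).

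Of 28 genes that go with the mesenchymal state, 17 passed 1 CPM, and 2 were higher and 2 lower, beside 10.8% and 5.29% of all genes. The lower ones are the matrix genes Fn1, with 65467 counts in DAC and 210619 in control (ratio 0.265, 0.263 to 0.267), and Tnc, with 169 in DAC and 639 in control (ratio 0.225, 0.189 to 0.267). The higher ones are the protease gene Mmp3, with 53 counts in DAC against 6 in control, which passed 1 CPM through its DAC level alone, and Fbn1, which encodes fibrillin, with 304 in DAC against 125 in control. After GC centring Fbn1 is not called (log2 ratio 0.99). Axl, a receptor kinase, and S100a4, a calcium-binding protein, had ratios of 0.965 (0.95 to 0.981) and 0.911 (0.892 to 0.929). The median log2 ratio was -0.04.

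Inputs and cofactors of these factors were counted by the same rule, beside 10.8% higher and 5.29% lower over all genes. Of 20 genes of TGF-β signaling and other inputs past 1 CPM, 4 were higher and 0 lower (median 0.01): the 3 TGF-β genes, and Smad6, an inhibitory SMAD, which passed 1 CPM through its DAC level alone. Smad6 had 132 counts in DAC and 18 in control, a ratio of 6.25 (3.80 to 10.9). Of 25 genes for corepressors and for the stability of SNAIL and related proteins, 0 were higher and 1 was lower (median -0.06). This was Usp27x, a deubiquitinase known to stabilize SNAIL1, with 128 counts in DAC and 282 in control, a ratio of 0.387 (0.311 to 0.478). The corepressor genes Ctbp1 and Ctbp2, whose products bind ZEB proteins, had ratios of 1.12 (1.07 to 1.16) and 1.10 (1.04 to 1.17). Of 5 genes that work with cadherins and passed 1 CPM, Jup, which encodes plakoglobin, was 3.13-fold higher (2.74 to 3.58), with 1031 counts in DAC and 281 in control. Ctnna1, the α-catenin gene, had 20345 counts in DAC and 27929 in control and a ratio of 0.621 (0.610 to 0.632).

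**Figure D4:**
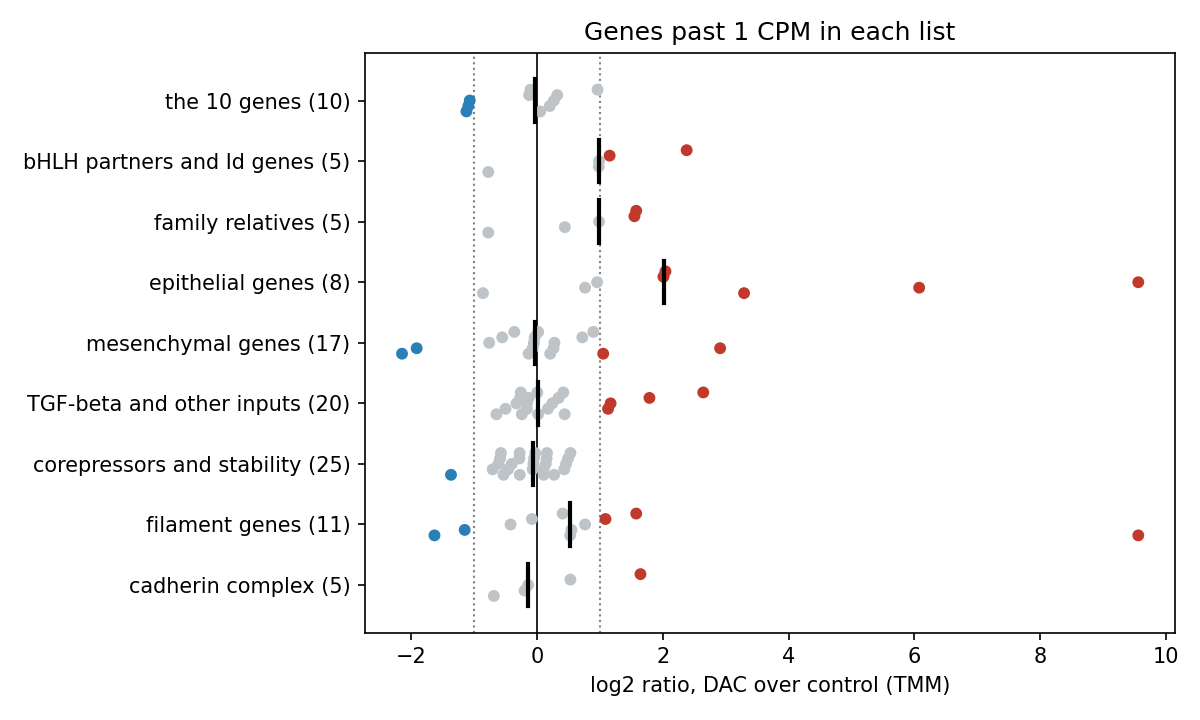
The x axis gives the log2 of DAC over control (TMM) for each gene past 1 CPM in 9 lists, whose sizes stand in parentheses, with higher genes in red, lower genes in blue, other genes in gray and the median as a black bar. The 10 genes have a median of -0.03, and their 3 blue points lie past the dotted 2-fold line by TMM but not by library totals or after GC centring.

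The nearest genes past 1 CPM on each side of the 10 genes were compared to see whether whole regions moved. Of these 20 neighbors, 14 had a ratio below 1 (70.0%, against 51.3% of all genes past 1 CPM), 3 were called higher and 1 lower, beside 10.8% and 5.29% of all genes, and 2 of the 3 higher ones, Ccdc68 and Gm11476, passed 1 CPM through their DAC level alone. The 6 neighbors of Zeb2, Snai2 and Prrx1 were not called, but the counting interval of 5 of them lay wholly below 1. The share of all genes with such an interval was not counted. It also occurred beside genes that were not called: Arhgap12 by Zeb1 (ratio 0.741), Twistnb by Twist1 (0.638), Asb1 by Twist2 (0.619) and Rnmt by Tcf4 (0.615). Rnf114 by Snai1 (1.36) and Hdac9 by Twist1 (1.49) had intervals wholly above 1. The closest to Zeb2, Gtdc1 at 56.0 kb, had 227 counts in DAC and 303 in control, a ratio of 0.638 (0.535 to 0.761). For Prrx1 it was Gorab at 71.2 kb, with a ratio of 0.757 (0.695 to 0.824), and for Snai2 Abcc1 at 230.1 kb, with a ratio of 0.724 (0.699 to 0.749). On their other sides the neighbors lay farther off. Prrc2c, 505 kb from Prrx1, had a ratio of 0.542 (0.528 to 0.556). Ube2v2, 843 kb from Snai2, had 0.638 (0.591 to 0.688), and Gm13470, 1302 kb from Zeb2, had 1.01 (0.799 to 1.29). Hdac4, a histone deacetylase gene 80.8 kb from Twist2, had 3076 counts in DAC and 5678 in control and was lower, at a ratio of 0.462 (0.442 to 0.482), while Twist2 itself had a ratio of 1.25. Ccdc68, 236 kb from Tcf4, had 75 counts in DAC and 7 in control and was 9.13-fold higher (4.22 to 23.5). The other higher neighbors were Hacd1, 267 kb from Vim, at a ratio of 2.04 (1.75 to 2.37), and Gm11476, 10.5 kb from Snai1, with 47 counts in DAC and 1 in control.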

How the data were processed

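RNA was isolated with TRIzol, selected with poly-T beads and sequenced on an Illumina instrument. The authors deposited 1 table of whole-number counts per Ensembl gene for each library, without normalization. The submitters' processing notes list the build mm10 and, among other tools, STAR 2.5.3a and StringTie 1.3.1c. The study's methods instead give CASAVA, TopHat and Bowtie with FPKM values. Which of these produced the counts is not stated in the sources at hand. Such choices decide how reads of paralogs and antisense genes are shared out.

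For symbols, exons and 3′ UTRs, GENCODE M21 was used (mouse GRCm38, which is mm10), in which 24122 of 24223 identifiers were found. Counts were scaled with edgeR 4.0.16 and compared in Python 3.11.15 with scipy 1.17.1, as ratios with exact (Clopper-Pearson) 95% counting intervals. Intervals of the within-library ratios are log-normal. Levels and intervals would be less precise than stated if counts are not independent molecules. The intervals and the 2-fold rule were tested on simulated libraries with Poisson counts and known library sizes. The scaling, the GC centring and a spread beyond counting error were not part of that test. Of the 50-base stretches of the longest transcripts, at most 0.963% (Snai2) in the 10 genes occur in other genes.

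All 10 genes are named. In the other lists, up to 4 higher and 4 lower genes and the most abundant could be named, and all family relatives and bHLH partners. Axl, S100a4, Krt18, Cdh1, Muc2, Grhl1, Ptprc, Laptm5, Lyz2, Cd52, Lgals4, Nes, Ctbp1, Ctbp2 and the antisense genes were named outside this rule, after their values were seen. The genes, the lists and the rules were chosen with earlier results of these data known. The results were recomputed with DESeq2 1.42.0 size factors, library totals or upper-quartile factors, no CPM minimum or 5 CPM, a fold of 1.5 or 4, counts divided by 3 for the interval, a difference of over 100 normalized counts, centring within 20 bins of GC content and centring on the all-gene median. The last of these and the GC-centred ratios within libraries were added once the data had been seen.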

Additional observations from a re-analysis of the deposited data

How the results depend on the processing

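With 1 library per group, only counting error could be measured. The ratios of Zeb2, Snai2 and Prrx1 were below 1 under all 11 alternatives, with log2 ratios from -1.12 to -0.83, from -1.09 to -0.82 and from -1.07 to -0.79, and each was called lower in 8 of them. The 3 lower calls became 0 by library totals, after GC centring and at a fold of 4. The 0 higher calls became 1 (Tcf4) by library totals, after GC centring and at a fold of 1.5. The median log2 ratio of the 10 genes was 0.16 by library totals and 0.0049 after GC centring, while library totals moved the median of all genes by 0.20. GC centring moved Snai1 to -0.51. Over all genes, 2672 were higher and 1239 lower without a CPM minimum, 684 and 450 at 5 CPM, 2612 and 2059 at a fold of 1.5, 579 and 112 at a fold of 4, and 776 and 464 with a difference of over 100 normalized counts, and by library totals 458 were lower. The epithelial genes called higher were 11 without a CPM minimum, 3 at 5 CPM and 3 with a difference of over 100 normalized counts, and at a fold of 4, 1 mesenchymal gene was lower. For single genes, 6 alternatives change only the calls and cannot move a log2 ratio. Of 50 ratios under the other 5, 20 left the counting interval, 10 of 10 by library totals, 9 of 10 after GC centring and 1 with DESeq2 size factors. Beyond these constructions, the cause was not tested. No paired analysis was possible because each group has 1 library.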

Other observations

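Besides Vim, CT26 cells carried transcripts of other intermediate filament genes. Nefl and Nefm, which encode the light and medium neurofilament proteins of neurons, differed in opposite directions. Nefl had 3875 counts in DAC and 1554 in control and was 2.13-fold higher (2.0 to 2.26), and Nefm had 8579 counts in DAC and 16254 in control, a ratio of 0.450 (0.438 to 0.462). For each count of Nefm there were 0.452 counts of Nefl in DAC and 0.0956 in control, a ratio of 4.72 (4.43 to 5.04) that became 5.95 after GC centring. By library totals Nefm is not called (log2 ratio -0.96). Des, the desmin gene of muscle, had 161 counts in DAC and 46 in control and was 2.98-fold higher (2.14 to 4.23). Synm, which encodes synemin, a partner of vimentin and desmin, had 28 counts in DAC and 74 in control and a ratio of 0.322 (0.201 to 0.504), and passed 1 CPM through its control level alone. Nes, the nestin gene, had 4779 counts in DAC and 2829 in control and a ratio of 1.44 (1.37 to 1.51).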
